A study of Homo sapiens with 4 samples.

Results

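Oligosaccharyltransferase is the membrane enzyme of the endoplasmic reticulum that moves a preassembled sugar chain from its dolichol carrier onto asparagines of newly made proteins. Its subunits were followed here in the established human cell line U87MG, which comes from a malignant glioma. The members were chosen by the rise of TUSC3 between the 2 clones of the series, and the remaining members were added as its partners in the enzyme. The list holds 10 genes (TUSC3, MAGT1, STT3A, STT3B, RPN1, RPN2, DDOST, DAD1, OSTC and KRTCAP2), of which 9 had a row among the 19555 genes of the table. RPN2 is not analysed here. Each of the 9 had a single probe set. The change of TUSC3 is therefore given as a description without a test, and tests are given for the other 8, which entered through their place in the enzyme, although earlier results of these data were known when the list was made.

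Human cells build this enzyme in a pair of forms. The STT3A form sits at the protein-conducting channel and modifies chains as they enter, and OSTC and KRTCAP2 are the subunits that link it to the channel. The STT3B form picks up sites that were missed, and it carries either TUSC3 or its paralogue MAGT1, membrane proteins with a thioredoxin-like domain that can hold cysteines of the substrate. RPN1, RPN2, DDOST, DAD1, OST4 and TMEM258 belong to both forms. The question was whether MAGT1 and the other subunits moved with TUSC3.

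The series holds 4 arrays of Affymetrix Human Gene ST type. In 2 samples the cells were a clone with wild-type membrane alanyl-aminopeptidase (CD13/APN, encoded by ANPEP) in a construct labelled U87_APN_wt_EGFP. In the other 2 they were a clone with the L243P form, labelled U87_APN_L243P_EGFP and described as inactive. All 4 samples share the U87MG background and plain cell culture, growth was described as comparable, and replicates came from independent experiments. Each genotype is 1 clone, so clone and genotype cannot be told apart, and a p-value sees only how far 2 experiments on the same clone differed. Values are normalized intensities (RMA, linear scale) as deposited, and changes are log2 of L243P over wild type from limma over all rows, with the standard error (SE) or the 95% interval. A gene is called at an adjusted p under 0.05.

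The array medians over all 29085 probe sets, unnamed ones included, lay between 46 and 50. The log2 intensities correlated at 0.993 within the wild-type pair, 0.995 within the L243P pair and 0.990 to 0.991 between the pairs. Of the genes tested 189 were called, a share of 0.967%, with 0.43% higher and 0.537% lower, and 0 were called when any of the 4 arrays was left out. ANPEP read 8447 and 9103 with wild type and 6439 and 7122 with L243P, a log2 change of -0.37 that was not called (adjusted p = 0.16). Whether its probe set sees the construct, the cell's own gene or both was not tested. The mesenchymal glioma markers VIM, CD44, FN1 and CHI3L1 were bright, between 1081 and 8297, and of these CHI3L1 and FN1 were called higher with L243P, whose part in the subunit values was not tested. Of the 7 astroglial and stem cell markers 6 were measured, between 12 and 133, and GFAP is not analysed here. Neuronal markers read 18 to 192, endothelial markers 18 to 76, epithelial markers 16 to 61, and the leukocyte marker PTPRC 8 to 9. Of the immune list the lysosomal protein CD68 was bright, at 1871 to 2569. Fewer cells of a kind and less RNA per cell cannot be told apart in such bulk samples.

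Promoter sequences from RefSeq (GRCh38.p14) were available for 6 of the 9 measured members, namely MAGT1, STT3A, DDOST, DAD1, OSTC and KRTCAP2. They were searched because genes of the secretory pathway often carry the CCAAT box, and because stress-response elements of the endoplasmic reticulum combine CCAAT with CCACG. The windows ran from 250 bases before the start to 50 after it, and both strands were read. The 250 bases before the start are shown 5′ to 3′ for MAGT1 and KRTCAP2, the members with the highest changes apart from TUSC3 and having a promoter entry, and for OSTC, the member with the lowest change. Capitals mark CCAAT and CCACG on either strand.
MAGT1 (chrX:77895436-77895685, minus strand): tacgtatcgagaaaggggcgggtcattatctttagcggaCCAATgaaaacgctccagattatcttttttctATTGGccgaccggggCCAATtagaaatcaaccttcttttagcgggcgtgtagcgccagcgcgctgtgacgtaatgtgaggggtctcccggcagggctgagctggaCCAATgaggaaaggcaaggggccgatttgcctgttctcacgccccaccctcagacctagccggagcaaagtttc
KRTCAP2 (chr1:155173305-155173554, minus strand): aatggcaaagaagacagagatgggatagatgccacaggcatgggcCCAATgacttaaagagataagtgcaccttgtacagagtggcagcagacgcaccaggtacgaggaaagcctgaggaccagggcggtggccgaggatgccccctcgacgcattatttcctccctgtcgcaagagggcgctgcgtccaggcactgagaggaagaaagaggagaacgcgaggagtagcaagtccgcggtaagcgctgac
OSTC (chr4:108650349-108650598, plus strand): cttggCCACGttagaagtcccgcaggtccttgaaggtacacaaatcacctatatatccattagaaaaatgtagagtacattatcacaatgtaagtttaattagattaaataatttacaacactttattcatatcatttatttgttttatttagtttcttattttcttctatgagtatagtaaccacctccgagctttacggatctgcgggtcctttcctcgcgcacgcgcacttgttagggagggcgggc

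CCAAT stood in 5 of the 6 windows, against 35.7% of 27305 promoter windows in the reference. MAGT1 held it 4 times, STT3A and DDOST 2 times each, and DAD1 and KRTCAP2 once, while OSTC held none. CCACG stood in DDOST and OSTC, against 37.9% of all windows. The full stress-response elements ERSE (CCAAT and CCACG with 9 bases of any kind between) and ERSE-II (ATTGG and CCACG with 1 base between), the element UPRE (TGACGTGG) and the cyclic AMP element (TGACGTCA) were in none of the 6 windows. They are rare at large, at 0.0806%, 0.0549%, 0.795% and 1.98% of the windows. These matches describe letters and not sites of binding.

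TUSC3 read 65 and 75 in the wild-type samples and 245 and 248 in the L243P samples, or 70.0 ± 7.07 against 246.5 ± 2.12 (mean ± SD, n = 2 per group). The lowest L243P value was 3.27 times the highest wild-type value, and the groups stood far apart. The fold between the means of log2 values was 3.53, a log2 change of 1.82. Only 0.0205% of all genes had a higher change. Among the genes of each array, the wild-type values stood at percentiles 46.0 and 49.9 and the L243P values at 78.2 and 78.8. The tables used here carry no detection calls, so the wild-type level is not separated from background and the fold compares measured intensities. In the authors' deposited table, made from the same arrays, the fold of TUSC3 is 3.5.

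None of the other 8 subunits was called, against 0.967% of all genes. Their log2 changes ran from -0.22 to 0.36 around a median of 0.02, beside a median of -0.02 over all genes. By limma, 4 of the 8 had an unadjusted p under 0.05, namely KRTCAP2 and STT3B upward (6.75% of all genes) and OSTC and STT3A downward (6.76%), against 13.5% of all genes in either direction. The 2 groups of arrays did not overlap in 6 of the 8, against 38.0% of all genes. Of these 6, STT3B, MAGT1, KRTCAP2 and DDOST were higher with L243P, against 17.0% of all genes, and STT3A and OSTC were lower, against 20.9%. A separation of this kind is common in these data, and none of the 6 passed the adjusted test.

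**Figure D1:**
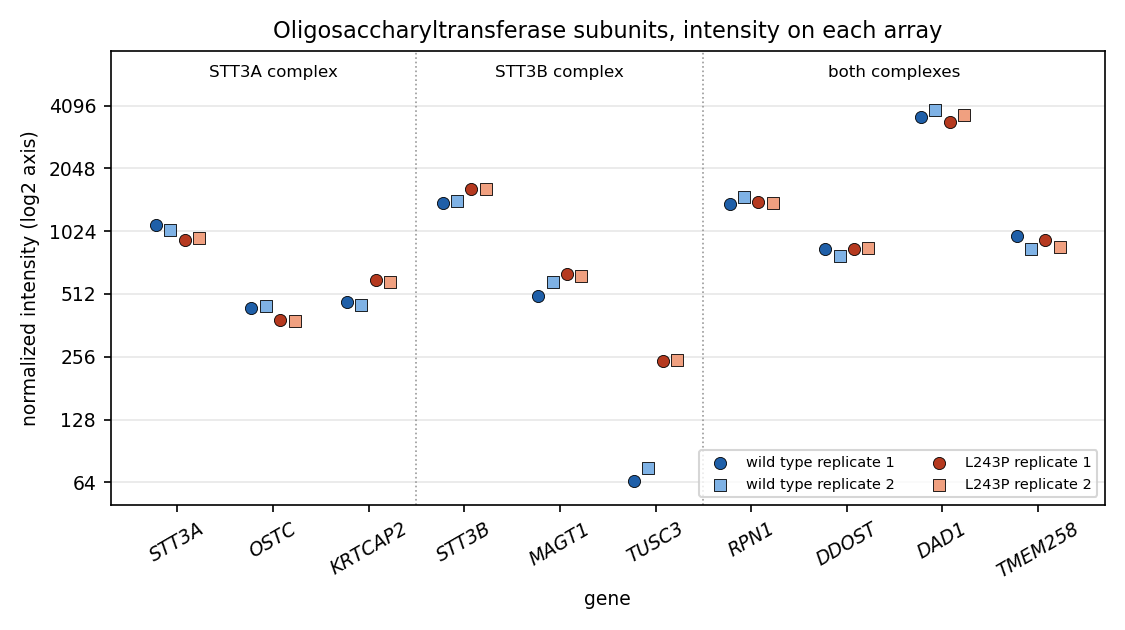
Normalized intensity (log2 axis) of 9 members and of TMEM258 on each of the 4 arrays, grouped by the form of the enzyme that holds the subunit; each point is 1 array. The wild-type points of TUSC3 lie at 65 and 75 and its L243P points at 245 and 248, while the other subunits stay close together across the arrays.

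MAGT1, the paralogue that takes the place of TUSC3 in the STT3B form, read 500 and 587 with wild type and 641 and 625 with L243P. Both L243P arrays were above both wild-type arrays, but the wild-type replicates differed from each other by 0.23 on the log2 scale, about as much as the groups did. The log2 change was 0.22 (SE 0.099, adjusted p = 0.47, limma), and its 95% interval ran from -0.02 to 0.47. In folds this is 1.17 with an interval of 0.987 to 1.38, whose upper end lies under the 3.53 of TUSC3, the gene chosen for its rise. Leaving out the first wild-type array gave 0.11 and leaving out the second gave 0.34, so the size rests on which of them is kept. No fall of MAGT1 beside the higher TUSC3 was measured.

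STT3B, the catalytic subunit of the form that holds TUSC3 or MAGT1, read 1396 and 1436 with wild type and 1623 and 1626 with L243P. The groups did not overlap, and each pair of replicates lay closer together than the groups. The log2 change was 0.20 (SE 0.069, adjusted p = 0.34), with an interval of 0.03 to 0.37, that is a fold of 1.15 between 1.02 and 1.29. The change of STT3B did not pass the test.

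STT3A, the catalytic subunit of the form at the channel, read 1093 and 1037 with wild type and 930 and 948 with L243P. It lay lower on both L243P arrays. The estimate was -0.18 (log2, SE 0.073, adjusted p = 0.41), with an interval from -0.36 to -0.003. OSTC, which ties this form to the channel, read 440 and 449 with wild type and 384 and 380 with L243P. Here too the groups did not overlap, and the estimate was -0.22 (log2, SE 0.077, adjusted p = 0.35), with an interval from -0.41 to -0.03. OSTC has a related pseudogene, OSTCP1 (OSTCL in the table), which read 17 and 15 with wild type and 13 and 15 with L243P, dim on all arrays.

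KRTCAP2, the other subunit particular to the STT3A form, went the other way. It read 470 and 452 with wild type and 599 and 584 with L243P, the clearest separation among the 8, with the lower L243P value 1.24 times the higher wild-type value. Its log2 change was 0.36 (SE 0.076), with an interval of 0.17 to 0.55, or a fold of 1.28 between 1.13 and 1.46. It was not called (adjusted p = 0.13, limma), and 4.96% of all genes had a higher change. The authors' deposited table gives it a fold of 1.3 and a proportion of false positives (pfp) of 0.713, above their limit of 0.15. The 3 measured subunits of the STT3A form therefore did not share a direction.

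The subunits of both forms varied little. RPN1, a large subunit that helps to present selected membrane substrates, read 1386 and 1489 with wild type and 1413 and 1396 with L243P, and the groups overlapped. DAD1, a small core subunit first known from a hamster cell line that dies when the protein is lost, read 3609 and 3879 with wild type and 3419 and 3699 with L243P, also with overlap. DDOST, the scaffold subunit also called OST48, read 840 and 776 with wild type and 841 and 851 with L243P, where the groups were parted by a single unit. The log2 changes were -0.03, -0.07 and 0.07, with intervals from -0.21 to 0.15, from -0.27 to 0.12 and from -0.12 to 0.26. A change of the size of TUSC3 lies outside all 3 intervals, but TUSC3 was chosen for its rise and nearly all genes had a lower change. TMEM258 (C11orf10 in the table), a small core subunit outside the member list, read 972 and 843 with wild type and 932 and 861 with L243P. Its estimate was -0.02 (log2, SE 0.097, adjusted p = 1.0, limma). OST4 is not analysed here.

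**Figure D2:**
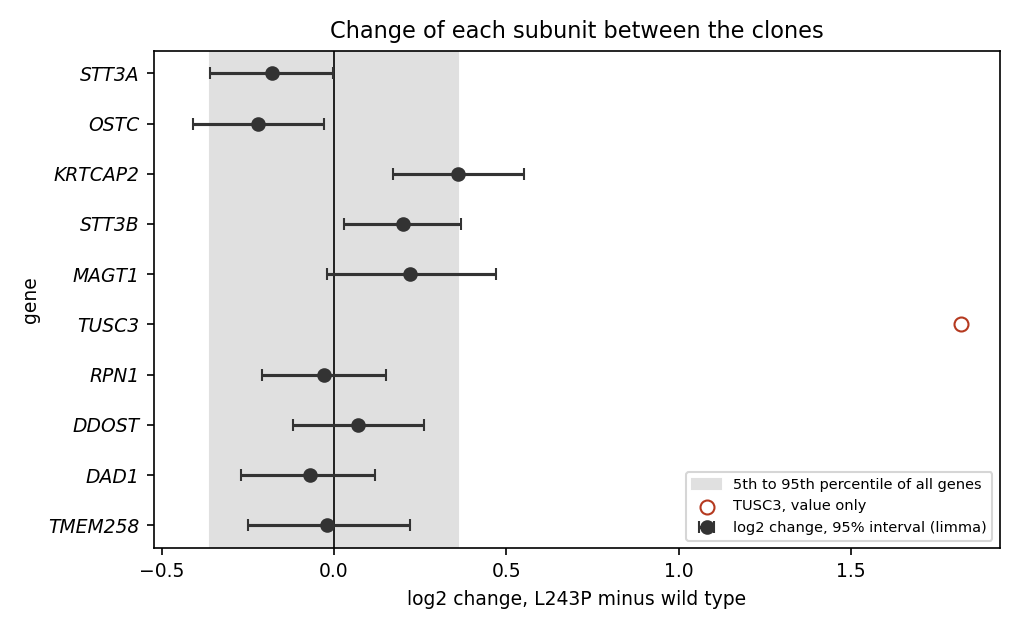
Log2 change of each subunit, L243P minus wild type; points are limma estimates and bars their 95% intervals, the open point is TUSC3 as a value only, and the shaded band spans the 5th to 95th percentile of 19555 genes (-0.36 to 0.36). The other subunits lie in or at the edge of the band, between -0.22 and 0.36, while TUSC3 stands at 1.82.

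The genes beside TUSC3 in the reference order were read to see whether the rise belonged to a stretch of neighbours. TUSC3 lies on chromosome 8, and the next measured genes are SGCZ (a sarcoglycan) on one side and MSR1 (a macrophage scavenger receptor) on the other. SGCZ read 12 and 13 with wild type and 11 and 10 with L243P, and MSR1 read 8 on all arrays but L243P replicate 1, where it read 7. Both were thus dim everywhere. C8orf48, an uncharacterized reading frame next to SGCZ, read 47 and 48 with wild type and 70 and 70 with L243P. Its log2 change of 0.56 (SE 0.12, adjusted p = 0.14, limma) was the highest among the 20 neighbours and was not called.

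The neighbours ZDHHC2 (a palmitoyltransferase) and CNOT7 (a subunit of the mRNA deadenylation complex) had log2 changes of -0.04 and -0.08. LONRF1 had 0.16, TRMT9B 0.04, FGF20 (a growth factor) -0.17 and MICU3 (a regulator of mitochondrial calcium uptake) -0.20. Over the 5 measured genes on each side the median was -0.06, with 0 called and 1 at an unadjusted p under 0.05 (limma). Over 10 on each side it was -0.09, again with 0 and 1. Of all genes 0.967% were called and 13.5% had an unadjusted p under 0.05. Many neighbours were dim, such as TRMT9B at 20 to 25 and FGF20 at 34 to 42, beside array medians of 46 to 50 over all probe sets. ZDHHC2 at 315 to 329 and CNOT7 at 1338 to 1487 were brighter. Changes of dim genes are poorly measured, and whether the stretch as a whole rose was not tested. The neighbours were placed by name. Among the 10 on each side, VPS37A and LOC392196 had probe set numbers far from those of the rest, and which place these read was not tested. For the other 8 members the median over 20 neighbours lay between -0.07 and 0.13, the highest being that of KRTCAP2.

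**Figure D3:**
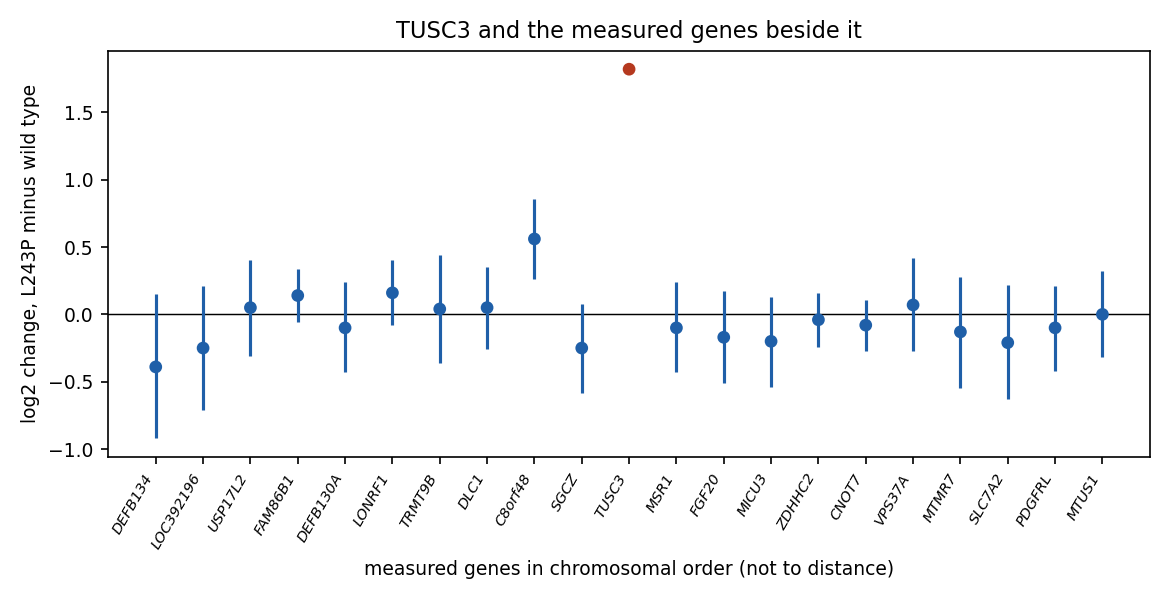
Log2 change, L243P minus wild type, of TUSC3 (red, value only) and of 10 measured genes on each side, placed by name in chromosomal order. Points are limma estimates and bars their 95% intervals. The neighbours lie between -0.39 and 0.56, under the 1.82 of TUSC3, and many of them are dim.

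The genes whose pattern over the 4 arrays lay nearest to that of TUSC3, by the Euclidean distance between centred log2 intensities, were CHI3L1, OLFML3, MRGPRF, PCOLCE and DAPL1, at distances of 0.28, 0.35, 0.40, 0.47 and 0.47. They were picked for this likeness, so their log2 changes of 1.98, 1.48, 1.52, 1.38 and 1.41 are a description. CHI3L1, a secreted glycoprotein, read 1161 and 1081 with wild type and 4186 and 4636 with L243P. OLFML3, a secreted olfactomedin-like protein, read 97 and 119 with wild type and 300 and 299 with L243P. None of them is a subunit of the enzyme or in the lists of its pathway. This was fixed by the sizes of change, which reached 0.36 in the other subunits and 0.67 in the lists.

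The rest of the pathway was read from 7 lists, including the further subunits, with 97 different genes measured of 107 listed. None was called, against 0.967% of all genes, with the smallest adjusted p at 0.082 (limma). At an unadjusted p under 0.05 there were 14 higher and 9 lower genes of the 97, beside 6.75% and 6.76% of all genes, and the median change was -0.01, beside -0.02. The authors' deposited summary holds 0 of the 97. Without the dimmer 50% of the rows 3 of the 94 left were called higher (UAP1, MAN1C1 and PDIA4), beside 440 of 11954 genes. With median centring MAN1C1 was called higher and NIPAL1 lower, 2 of 97, beside 505 of 19555 genes.

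Dolichol-linked oligosaccharide assembly builds the sugar chain that the enzyme transfers. Of its 24 genes 20 were measured, 0 were called and the median was -0.10, with 17 of the 20 below 0, beside 10713 of all 19555 genes. With 1 array left out the list median ranged from -0.16 to -0.05. ALG3, which adds the first mannose in the lumen, read 1125 and 1265 with wild type and 944 and 918 with L243P, a log2 change of -0.36 (adjusted p = 0.18). ALG9, a later mannosyltransferase, had -0.34. At the other end, DPM3, the anchoring subunit of dolichol-phosphate mannose synthase, read 308 and 257 with wild type and 356 and 393 with L243P, a log2 change of 0.41 (adjusted p = 0.24). DPM1, the catalytic subunit of that synthase, had 0.15 with overlapping groups.

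The list of sugar nucleotide supply had all 11 genes measured, 0 called and a median of 0.04. UAP1, which makes UDP-N-acetylglucosamine, read 177 and 203 with wild type and 268 and 279 with L243P, a log2 change of 0.53 (adjusted p = 0.12). GFPT1 and GFPT2 are alternative enzymes for entry into the same pathway, and their values differed in sign, at -0.18 and 0.31. PGM3, a mutase of the pathway, had -0.11, with wild-type values of 183 and 273 on either side of the L243P values.

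Trimming and lectin quality control follow the transfer of the chain. All 21 genes were measured, 0 were called and the median was 0.10, with 14 above 0, beside 8749 of all 19555 genes. UGGT2, the paralogue of the glucosyltransferase that marks unfolded glycoproteins, read 77 and 96 with wild type and 153 and 122 with L243P, a log2 change of 0.67 (adjusted p = 0.20). MAN1C1, a Golgi mannosidase, read 116 and 115 with wild type and 194 and 170 with L243P, a log2 change of 0.65 (adjusted p = 0.082). LMAN1, a cargo lectin between the endoplasmic reticulum and Golgi, and PRKCSH, the regulatory subunit of glucosidase II, both had -0.24.

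The translocon list, whose channel hosts the STT3A form, had all 19 genes measured, 0 called and a median of -0.03. The channel subunits SEC61G and SEC61A1 had -0.24 and -0.21, next to the -0.18 of STT3A and the -0.22 of OSTC. They were the lowest of the list, and the channel subunits SEC61B and SEC61A2 went the other way, at 0.15 and 0.04. SSR2, a subunit of the neighbouring TRAP complex, read 1212 and 1141 with wild type and 1460 and 1440 with L243P, a log2 change of 0.30 (adjusted p = 0.18), next to the 0.36 of KRTCAP2. TRAM2, a channel-associated protein, had 0.20. These values are shown side by side and were not tested against each other. KRTCAP2, SSR2 and DPM3, named here for their high changes, all lie on chromosome 1. Of the other member and pathway genes there, MAN1C1, UAP1 and EDEM3 had 0.65, 0.53 and 0.47. MAN1A2, SLC41A1 and DDOST had 0.41, 0.28 and 0.07, and DHDDS, ALG14 and ALG6 had -0.13, -0.10 and -0.05. A link between that place and the changes was not tested.

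TUSC3 and MAGT1 carry a thioredoxin-like domain, and 14 of 17 other genes of that family and its oxidases were measured, with 0 called and a median of 0.06. PDIA4, a disulfide isomerase, read 1354 and 1244 with wild type and 1725 and 1796 with L243P, a log2 change of 0.44 (adjusted p = 0.090). PDIA3, the isomerase that works with the lectin chaperones, had 0.22 from the brighter of its 2 probe sets and 0.21 from their mean. PDIA3 lies on chromosome 15, but the brighter probe set is numbered among those of chromosome 1 genes. Which place it reads was not tested. TMX2 and the oxidase ERO1A had -0.32 and -0.14. Both paralogues have also been studied for magnesium uptake, and 12 of 14 genes of magnesium transport were measured, with 0 called and a median of -0.02. NIPAL1 read 59 and 47 with wild type and 30 and 36 with L243P, a log2 change of -0.68 (adjusted p = 0.21), and its relative NIPA2 had -0.29. The channel kinase TRPM7 and the transporter SLC41A1 had 0.30 and 0.28.

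**Figure D4:**
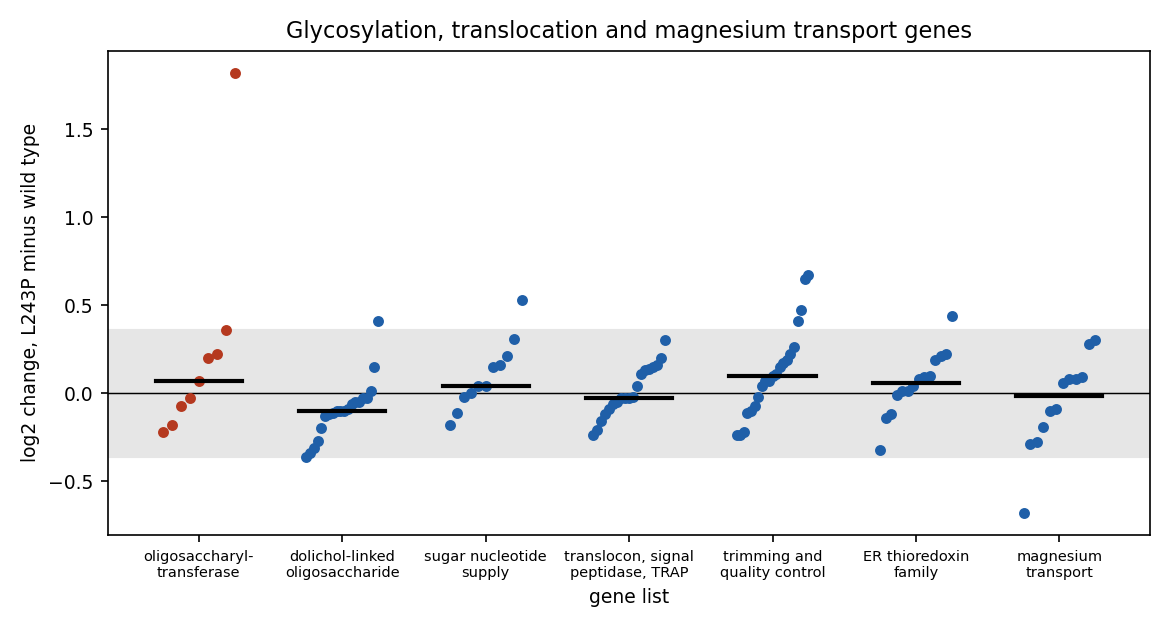
Log2 change, L243P minus wild type, of each measured gene in the oligosaccharyltransferase list (red, 9 members) and in 6 lists of its pathway (blue); black bars are list medians and the shaded band spans the 5th to 95th percentile of all genes. TUSC3 at 1.82 stands alone, and no blue point exceeds 0.67.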

How the data were processed

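RNA of 4 samples (2 per clone) was measured on Affymetrix Human Gene ST arrays. Per the deposited description, the authors background corrected, quantile normalized and summarised the arrays by RMA in Rosetta Resolver, and RMA is also named in the submitters' processing notes. The deposited intensities are linear, rounded to whole numbers, and cover 29085 probe sets. For software versions and the genome build, the sources used here give nothing. The authors' deposited fold change, pfp and ranks are treated as scores; their deposited p-values were not used for calls. Arrays have no depth, and their number limits the precision.

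Names were updated through a RefSeq table (GRCh38.p14), where 18201 of 19607 usable names matched. The probe set with the highest mean stood for each of the 19555 genes, and with 7978 unnamed rows 27533 rows were fitted. The intensities were log2 transformed with no pseudocount or filter and compared with limma 3.58.1 (R 4.3.3; trend = TRUE, robust = TRUE), and p-values were adjusted across every fitted row (Benjamini-Hochberg, threshold 0.05). The fit was tested on simulated rounded arrays. Members, lists and the choice of fit were made with earlier results of these data known. Named genes were the members, TMEM258, ANPEP, the called genes and the 2 highest and 2 lowest of each pathway list, 5 neighbours of TUSC3 on each side and the 5 genes nearest to it in pattern. OSTCP1, SEC61B, SEC61A2, EDEM3, MAN1A2, DHDDS, ALG14, ALG6, VPS37A and LOC392196 were added after their values were seen. Alternatives were another prior, median centring, quantile normalization, no dim rows, log2(intensity + 16), a replicate block, each array left out, all probe sets averaged and the series matrix values. A marker gene and a neighbour of TUSC3 are not reported here by name, though the neighbour counts include the latter.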

Additional observations from a re-analysis of the deposited data

How the results depend on the processing

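The 8 subunits other than TUSC3 gave 0 calls under every alternative, a crossed block added after seeing the data included, and 103 of their 104 values kept their sign. The exception was RPN1, whose change ranged from -0.08 to 0.02 with 1 array left out. The other prior, the blocks, leaving out dim rows, averaging probe sets and the series matrix values cannot alter these estimates. Under those alternatives the sign was fixed in advance. The adjusted p of KRTCAP2 ranged from 0.066 without the dimmer 50% of the rows to 0.65 with the replicate block. TUSC3 stayed between 1.61, with log2(intensity + 16), and 1.92, without wild-type replicate 2. Of the 97 pathway genes 2 were called with median centring, and without the dimmer rows 3 of the 94 left. Over all genes, 189 calls (44.4% higher) became 505 (55.8% higher) with median centring, 440 (58.4% higher) without the dimmer rows, and 0 with the default prior, for which the cause was not tested. The replicate block gave 0 calls, as did the crossed block and each fit with 1 array left out (0 to 0). Same-numbered arrays deviated with a correlation of -0.164, so the numbers are not taken to pair the samples. TMEM258 changed sign with median centring (0.02) and ranged from -0.12 to 0.09 with 1 array left out. DPM1 ranged from -0.01 to 0.31, PGM3 from -0.40 to 0.18 and TRMT9B from -0.12 to 0.20. With 1 array left out, list medians ranged from 0.07 to 0.12 for trimming, from 0.04 to 0.18 for sugar supply, from -0.07 to 0.09 for the translocon, from 0.03 to 0.09 for the thioredoxin family and from -0.12 to 0.09 for magnesium transport. The causes of these changes were not tested. The series matrix held the same values as the table. Small changes of dim genes are limited by rounding and by 2 arrays per clone.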
